A study of Mus musculus with 9 samples.

Results

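Polycomb repressive complex 2 (PRC2) and the demethylases that remove its mark were examined through 9 genes, namely Ezh2, Ezh1, Eed, Suz12, Jarid2, Phf19, Mtf2, Kdm6a and Kdm6b. They were taken by symbol from the deposited expression table, and all 9 were found among its 12842 genes. PRC2 places methyl groups on a lysine of histone H3 (H3K27), and the trimethylated form marks silent developmental genes. Its catalytic subunit is EZH2 or EZH1, EED and SUZ12 are needed for activity, and accessory proteins bring the complex to chromatin, whereas KDM6A and KDM6B take the methyl groups off. EZH2 is known for high expression in advanced prostate cancer. NSD2, the enzyme whose gene was silenced in these experiments, methylates another lysine of the same histone (H3K36).

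The data are RNA-seq profiles of cultured NPK cells, a mouse prostate cancer line that the authors isolated from lung metastases. NPK mice are engineered to develop metastatic prostate cancer, and all 3 groups share their genotype. The groups were control cells, cells in which shRNA silenced Nsd2 (shNsd2) and cells given a compound labelled MCTP, with 3 libraries in each. That label is also the name stem of a putative NSD2 inhibitor in the study. The authors do not conclude directly that this inhibitor acts on NSD2, and give a possible lack of specificity as a caveat. The labels do not say whether control cells received a control vector or a solvent, which Nsd2 shRNA each library carries, or the dose and time of MCTP. The MCTP libraries bear the compound numbers 39, 40 and 41 for replicates 1, 2 and 3, so that replicate and compound number cannot be told apart. For the shNsd2 libraries, the titles all give Nsd2 and were used for grouping, although another field gives Nsd2, Nsd3 and Nsd4 for the successive replicates.

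Each gene has 1 value per library on a log2 scale, and a difference of 1 is a doubling where the transform is linear in log2. The values are not read counts, sequencing depth is therefore unknown, and precision was judged from the spread between replicates. Nothing in the labels says that replicates were separate cultures, and the p-values measure the spread between these libraries only. All 9 genes passed the filter on low values in every comparison. Groups were compared with limma over all genes tested, and a gene was called at an adjusted p under 0.05.

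Some libraries stood apart from the others of their group. MCTP replicate 2 differed from the mean of the other MCTP libraries by a root mean square of 0.209 (log2) over 11928 genes, against 0.081 for replicate 1 and 0.158 for replicate 3. Control replicate 1 differed from the other controls by 0.120, against 0.066 and 0.085 for replicates 2 and 3. The shNsd2 libraries differed by 0.065, 0.061 and 0.096, with replicate 3 furthest from its group. Libraries also differed in how expression followed the GC content of transcripts. Per 10 percentage points of GC, the deviation of a library from the mean of all 9 changed by -0.16 (log2) in control replicate 1, 0.14 in MCTP replicate 1 and 0.21 in MCTP replicate 3, but by -0.067 in MCTP replicate 2. In the other 5 libraries it lay between -0.075 (shNsd2 replicate 3) and 0.027. These slopes are taken against all 9 libraries, whereas the distances above are within a group. Within each group, the library furthest from the others also had the lowest slope. It was -0.067 in MCTP replicate 2 against 0.14 and 0.21 in replicates 1 and 3. In control replicate 1 it was -0.16 against -0.058 and -0.032, and in shNsd2 replicate 3 it was -0.075 against 0.022 and 0.027. The mean deviation of Suz12, Mtf2, Kdm6a, Ezh2 and Eed, chosen after their values were seen, was 0.27, 0.049 and 0.009 in the control libraries, 0.11, 0.11 and 0.25 in the shNsd2 libraries and -0.34, 0.001 and -0.45 in the MCTP libraries. Control replicate 1 and shNsd2 replicate 3 were thus the highest, and MCTP replicates 1 and 3 the lowest. For the 9 genes, changes of a call without these libraries are therefore given, and changes of a call with each library corrected for GC content, which takes out real changes along GC content too. For other gene lists, apart from the cell type markers, counts are given with their range over the alternatives. What part library composition had in the results was not tested.

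Nsd2 itself, listed under its earlier symbol Whsc1, served as a check of the labels. Its log2 value was 12.48, 12.43 and 12.42 in the control libraries and 11.56, 11.61 and 11.68 in the shNsd2 libraries. All shNsd2 values lay below all control values (log2 fold change -0.83, standard error (SE) 0.041, adjusted p = 2.26e-06). The exact permutation test gave p = 0.1, its minimum for groups of 3. With MCTP the log2 fold change of Nsd2 was -0.30 (SE 0.054, adjusted p = 0.00562), and with the GC correction it was -0.12 and not called (adjusted p = 0.0775, with 2.77e-06 to 0.132 over the alternatives).

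In the comparison of shNsd2 with control, 1 of the 9 genes was called, Kdm6b, which rose. Over all genes, 47.8% of 12205 were called, and 23.1% were called higher. For 3 of the 9 genes (Ezh1, Jarid2 and Kdm6b) the groups were fully apart, as they were for 57.2% of all genes. The median log2 fold change of the 9 genes was 0.006 beside 0.0020 over all genes tested. Both counts of the 9 genes thus lay below the share over all genes with all 6 libraries. The number called was not stable, however, at 3 of 9 without control replicate 1, where 49.3% of all genes were called, and 4 of 9 with the GC correction, where 56.0% were.

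In the comparison of MCTP with control, 3 of the 9 genes were called, Ezh2, Suz12 and Jarid2, and all 3 fell. Over all genes, 35.2% of 12216 were called and 17.2% were called lower, so that 3 of 9 called is near the share called over all genes, with all 3 on the lower side. For the same 3 genes the groups were fully apart, as they were for 50.6% of all genes. The median log2 fold change of the 9 genes was -0.25 beside -0.0062 over all genes, and 8 of the 9 values were below 0. Without MCTP replicate 2, 6 of the 9 genes were called, all lower, where 60.4% of all genes were called. Without control replicate 1 as well, an alternative chosen after seeing the data, 6 were called, where 62.0% of all genes were. Without control replicate 1 alone, control replicate 2, MCTP replicate 1 or MCTP replicate 3, limma called 0 of the 9 genes, while 3, 4, 3 and 3 of them had an unadjusted p under 0.05. In these 4 fits, with 1 library fewer, the share of all genes called was 19.4, 17.7, 16.6 and 23.2%, so calls were lost over the whole table and not only among the 9 genes. Without control replicate 3 the share was 20.1%, and all 3 genes were still called.

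**Figure D1:**
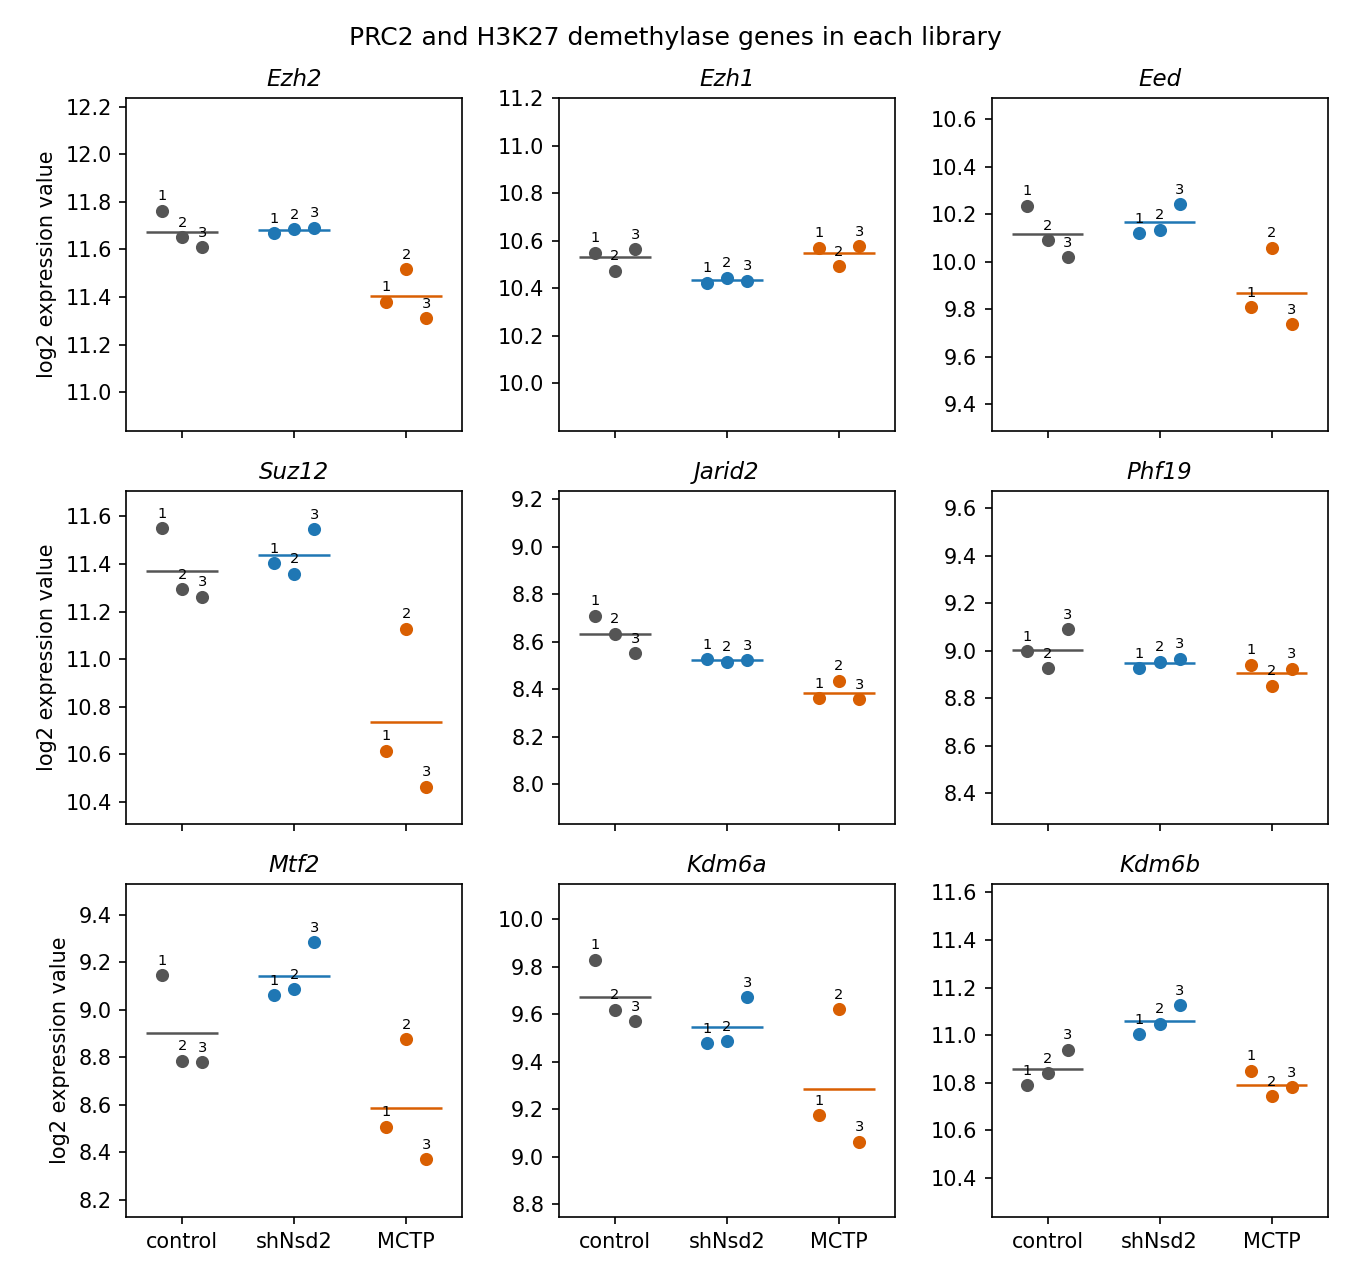
Log2 expression values of the 9 genes in each library, with one panel per gene, the replicate number above each point and a line at each group mean; all panels span the same log2 range. MCTP replicate 2 lies above MCTP replicates 1 and 3 for Suz12, at 11.13 against 10.61 and 10.46, and likewise for Eed, Mtf2 and Kdm6a.

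Ezh2 encodes the main catalytic subunit of PRC2 in dividing cells (ENSMUSG00000029687.9, GRCm38 chromosome 6, 47530139 to 47595341, - strand). Its log2 value was 11.76, 11.65 and 11.61 in the control libraries, 11.67, 11.68 and 11.69 in the shNsd2 libraries and 11.38, 11.52 and 11.31 in the MCTP libraries. All MCTP libraries lay below all other libraries, while the shNsd2 values lay inside the control range. The group means were 11.67 ± 0.079 (SD, n = 3) in control, 11.68 ± 0.012 in shNsd2 and 11.40 ± 0.105 in MCTP. With MCTP the log2 fold change was -0.27 (SE 0.069, 95% interval -0.43 to -0.11, adjusted p = 0.0211; exact permutation p = 0.1). On a linear scale Ezh2 stood at 0.829 ± 0.061 (SD, n = 3) of its control mean. The call was lost without control replicate 1 (-0.23), control replicate 2 (-0.28), MCTP replicate 1 (-0.26) or MCTP replicate 3 (-0.23), with adjusted p between 0.0564 and 0.0859. Without MCTP replicate 2 the fall was larger (-0.33, adjusted p = 0.000705), and with the GC correction it was smaller but still called (-0.16, adjusted p = 0.0091). Over all 15 alternatives the adjusted p was between 1.45e-05 and 0.0859. With shNsd2 the log2 fold change of Ezh2 was 0.0061 (SE 0.043, 95% interval -0.092 to 0.104, adjusted p = 0.92; exact permutation p = 0.9), and its sign changed with quantile normalization.

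Ezh1 encodes the alternative catalytic subunit, which is prominent in resting cells (ENSMUSG00000006920.8, chromosome 11, 101191115 to 101226463, - strand). The values of Ezh1 were 10.55, 10.48 and 10.57 in the control libraries, 10.42, 10.45 and 10.43 in the shNsd2 libraries and 10.57, 10.49 and 10.58 in the MCTP libraries. All shNsd2 libraries lay below all control and MCTP libraries, and the control and MCTP values overlapped. The difference between shNsd2 and control was -0.097 (SE 0.038, adjusted p = 0.0604) and was not called, although it was called without control replicate 2 (-0.12, adjusted p = 0.0461) and with the GC correction (-0.11, adjusted p = 0.0174), with 0.0174 to 0.176 over the alternatives. With MCTP the log2 fold change was 0.017 (SE 0.053, 95% interval -0.105 to 0.139, adjusted p = 0.82), and it was -0.028 with the GC correction.

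The difference Ezh2 minus Ezh1 sets the catalytic subunits against each other within a library. It was 1.21, 1.18 and 1.04 (log2) in the control libraries, 1.24, 1.24 and 1.26 in the shNsd2 libraries and 0.81, 1.02 and 0.73 in the MCTP libraries. The MCTP libraries lay below the others on this difference, and MCTP replicate 2 lay just below control replicate 3. Per length of the longest transcript the mean difference was 1.74 in control, 1.84 in shNsd2 and 1.45 in MCTP, which puts Ezh2 at 3.34, 3.58 and 2.73 times Ezh1. With the median length of their transcripts the difference was 1.06, 1.17 and 0.77, or 2.08, 2.25 and 1.71 times, so the ratio depended on the length used while Ezh2 stayed above Ezh1. No test was run on these differences.

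Among the core subunits, Suz12 had the widest range of group means of the 9 genes, 0.70 (log2). It encodes the zinc-finger subunit on which the complex is assembled (ENSMUSG00000017548.9, chromosome 11, 79993106 to 80034123, + strand). The log2 value of Suz12 was 11.55, 11.29 and 11.26 in the control libraries, 11.40, 11.36 and 11.55 in the shNsd2 libraries and 10.61, 11.13 and 10.46 in the MCTP libraries. MCTP replicates 1 and 3 were far below every other library, and MCTP replicate 2 was only slightly below the lowest control. The means were 11.37 ± 0.158 (SD, n = 3) in control, 11.44 ± 0.098 in shNsd2 and 10.74 ± 0.349 in MCTP. With MCTP the log2 fold change was -0.63 (SE 0.16, 95% interval -1.02 to -0.25, adjusted p = 0.0222), which on a linear scale is a fraction of 0.655 ± 0.165 (SD, n = 3). The fall was called at -0.83 without MCTP replicate 2 (adjusted p = 3.81e-05) and at -0.46 with the GC correction (adjusted p = 0.00531), and the adjusted p lay between 5.18e-12 and 0.0938 over the alternatives. It was not called without control replicate 1 (-0.54), control replicate 2 (-0.67), MCTP replicate 1 (-0.57) or MCTP replicate 3 (-0.50), with adjusted p between 0.0544 and 0.0938. With shNsd2 the log2 fold change was 0.067 (SE 0.078, adjusted p = 0.506), while without control replicate 1 it was 0.16 and called (adjusted p = 0.0306), as it was with the GC correction (0.12, adjusted p = 0.0271; 0.0271 to 0.921 over the alternatives).

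Eed encodes the subunit that binds trimethylated H3K27 and stimulates the enzyme (ENSMUSG00000030619.8, chromosome 7, 89954654 to 89980983, - strand). The values of Eed were 10.24, 10.09 and 10.02 in the control libraries, 10.12, 10.14 and 10.24 in the shNsd2 libraries and 9.81, 10.06 and 9.74 in the MCTP libraries. MCTP replicates 1 and 3 were the lowest libraries, but MCTP replicate 2 lay within the control range, so these groups overlapped. The log2 fold change with MCTP was -0.25 (SE 0.096, adjusted p = 0.0768) and was not called, whereas without MCTP replicate 2 it was -0.34 and called (adjusted p = 0.00166; 7.49e-05 to 0.229 over the alternatives). With shNsd2 it was 0.050 (SE 0.060, adjusted p = 0.52). It lay between 0.0016 and 0.11 with single libraries left out and was not called in these fits.

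Of the accessory subunits, Jarid2 binds nucleosomes and helps to bring the complex to its sites (ENSMUSG00000038518.8, chromosome 13, 44729474 to 44921643, + strand). The log2 value of Jarid2 was 8.71, 8.63 and 8.55 in the control libraries, 8.53, 8.52 and 8.52 in the shNsd2 libraries and 8.36, 8.44 and 8.36 in the MCTP libraries. The groups did not overlap in any pair, with control highest and MCTP lowest, and MCTP replicate 2 lay close to the other MCTP libraries here. With MCTP the log2 fold change was -0.25 (SE 0.062, 95% interval -0.39 to -0.10, adjusted p = 0.0197), and with the GC correction it was -0.24 (adjusted p = 0.0066; 0.00143 to 0.0834 over the alternatives). The call was lost without control replicate 1 (-0.21), control replicate 2 (-0.25), MCTP replicate 1 (-0.23) or MCTP replicate 3 (-0.23), with adjusted p between 0.0522 and 0.0834. With shNsd2 the log2 fold change was -0.11 (SE 0.049, adjusted p = 0.093) and was not called, although it was called without control replicate 3 (-0.15, adjusted p = 0.0395; 0.0395 to 0.256 over the alternatives).

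Mtf2 encodes a Polycomb-like protein that binds CpG-rich DNA (ENSMUSG00000029267.10, chromosome 5, 108065674 to 108109004, + strand). For Mtf2 the log2 value was 9.15, 8.79 and 8.78 in the control libraries, 9.06, 9.09 and 9.28 in the shNsd2 libraries and 8.51, 8.88 and 8.37 in the MCTP libraries. Control replicate 1 lay within the shNsd2 range and MCTP replicate 2 within the control range, so both treated groups overlapped with control. The log2 fold change was 0.24 with shNsd2 (SE 0.10, adjusted p = 0.0785) and -0.32 with MCTP (SE 0.15, adjusted p = 0.122), and neither was called. The former was called without control replicate 1 (0.36, adjusted p = 0.00145), with the GC correction (0.27, adjusted p = 0.00138), with quantile normalization (0.25, adjusted p = 0.0451) and with median centring (0.26, adjusted p = 0.0417), with 0.00138 to 0.236 over the alternatives. The latter was called without MCTP replicate 2 (-0.46, adjusted p = 0.00344). It was smaller and not called without control replicate 1 (-0.20, adjusted p = 0.343) and with the GC correction (-0.099, adjusted p = 0.221). Its adjusted p lay between 2.45e-05 and 0.343 over the alternatives.

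Phf19 encodes another Polycomb-like protein, with a Tudor domain that binds methylated H3K36 (ENSMUSG00000026873.3, chromosome 2, 34893757 to 34914026, - strand). Its log2 value was 8.999, 8.93 and 9.09 in the control libraries, 8.93, 8.95 and 8.97 in the shNsd2 libraries and 8.94, 8.85 and 8.92 in the MCTP libraries. All 3 groups overlapped. The log2 fold change was -0.055 with shNsd2 (SE 0.050, 95% interval -0.167 to 0.057, adjusted p = 0.383) and -0.098 with MCTP (SE 0.063, 95% interval -0.244 to 0.047, adjusted p = 0.242). With the GC correction the value for MCTP was -0.18 and called (adjusted p = 0.022; 0.022 to 0.579 over the alternatives).

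Of the demethylases, Kdm6b was the gene called with shNsd2 (ENSMUSG00000018476.7, chromosome 11, 69398508 to 69413675, - strand). KDM6B is an enzyme whose gene is induced by many stimuli. The log2 value of Kdm6b was 10.79, 10.84 and 10.94 in the control libraries, 11.004, 11.05 and 11.13 in the shNsd2 libraries and 10.85, 10.74 and 10.78 in the MCTP libraries. All shNsd2 libraries lay above all control and MCTP libraries, and the latter groups overlapped. The means were 10.86 ± 0.075 (SD, n = 3) in control, 11.06 ± 0.062 in shNsd2 and 10.79 ± 0.054 in MCTP. With shNsd2 Kdm6b rose by 0.20 (log2; SE 0.049, 95% interval 0.092 to 0.314, adjusted p = 0.0084), or 1.15 ± 0.0496-fold (SD, n = 3) on a linear scale. The rise was called in all 14 alternative fits of this comparison, between 0.13 with the GC correction and 0.24, with adjusted p between 0.00507 and 0.035. With MCTP the log2 fold change was -0.065 (SE 0.058, adjusted p = 0.403), and -0.17 with the GC correction, which was called (adjusted p = 0.0227; 0.0227 to 0.807 over the alternatives). This was the only call among the 15 alternatives, and it was lost with the same correction and the replicate block.

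Kdm6a, which is X-linked and encodes the demethylase found in the Kmt2c and Kmt2d complexes, was low in the same MCTP libraries as Suz12 (ENSMUSG00000037369.9, chromosome X, 18162575 to 18279936, + strand). Its log2 value was 9.83, 9.62 and 9.57 in the control libraries, 9.48, 9.49 and 9.67 in the shNsd2 libraries and 9.18, 9.62 and 9.06 in the MCTP libraries. MCTP replicates 1 and 3 were below every other library, whereas MCTP replicate 2 lay within the control range. The log2 fold change with MCTP was -0.39 (SE 0.14, adjusted p = 0.068) and was not called, while without MCTP replicate 2 it was -0.55 and called (adjusted p = 0.000257). With the GC correction it was -0.23 (adjusted p = 0.051), and the adjusted p lay between 8.91e-08 and 0.211 over the alternatives. With shNsd2 the log2 fold change was -0.13 (SE 0.077, adjusted p = 0.197). It lay between -0.19 and -0.050 with single libraries left out and was not called in these fits.

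Whether shNsd2 and MCTP cells differed from each other was tested directly, since both comparisons above share the control libraries. In shNsd2 cells 5 of the 9 genes were called, all higher than in MCTP cells, where 43.2% of 12217 genes were called and 20.6% were called higher. For 7 of the 9 genes the groups were fully apart, as they were for 55.0% of all genes. The 5 were Suz12 (0.70, SE 0.16, adjusted p = 0.0104), Mtf2 (0.56, SE 0.13, adjusted p = 0.0117), Eed (0.30, SE 0.088, adjusted p = 0.0286), Ezh2 (0.28, SE 0.060, adjusted p = 0.00854) and Kdm6b (0.27, SE 0.053, adjusted p = 0.00625). They include both core subunits, and Ezh2 and Kdm6b were called in all 14 alternative fits. Eed was not called when any library other than MCTP replicate 2 was left out, with values from 0.23 without MCTP replicate 3 to 0.32 without shNsd2 replicate 1. Suz12 and Mtf2 were not called without MCTP replicate 1 (0.64 and 0.52), which left 2 of the 9 genes called, where 27.6% of all genes were. Without MCTP replicate 2, 8 of the 9 genes, all but Phf19, were called, where 63.6% of all genes were, 7 higher and Ezh1 lower (-0.14, adjusted p = 0.0121; 0.0121 to 0.275 over the alternatives). With the GC correction 7 of the 9 were called, where 56.4% of all genes were. They were the 5 above, at 0.58 for Suz12, 0.37 for Mtf2, 0.29 for Eed, 0.23 for Ezh2 and 0.30 for Kdm6b, with Jarid2 (0.15, adjusted p = 0.0135; 0.0126 to 0.199 over the alternatives) and Ezh1 (-0.083, adjusted p = 0.0461). Jarid2 (0.14, adjusted p = 0.0537), Ezh1 (-0.11, adjusted p = 0.08), Kdm6a (0.26, adjusted p = 0.169) and Phf19 (0.043, adjusted p = 0.509) were not called with all libraries.

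**Figure D2:**
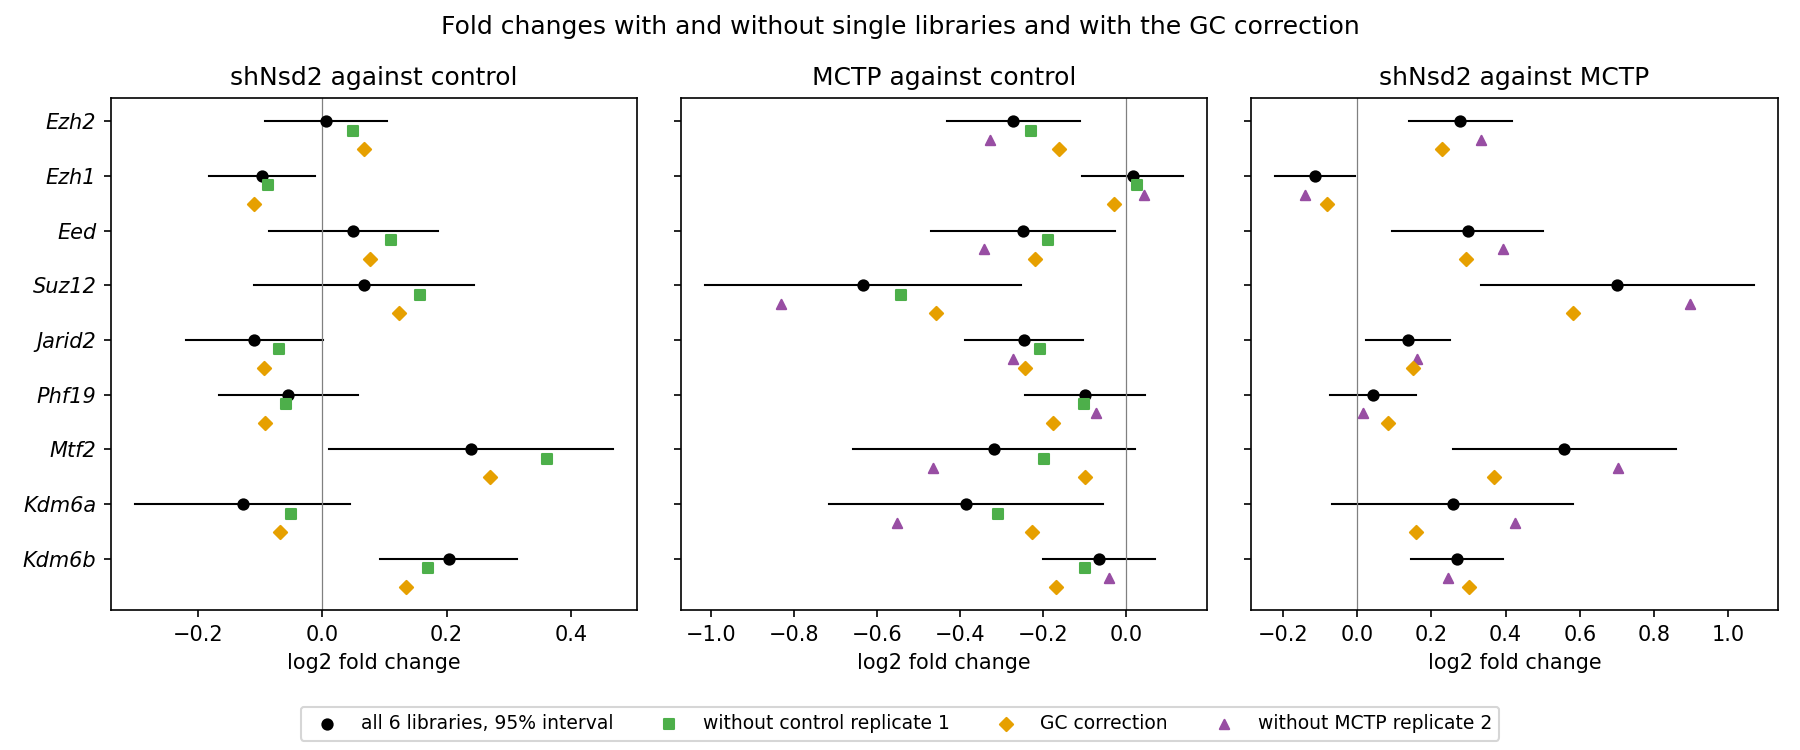
Log2 fold changes of the 9 genes in each comparison, as black points with 95% intervals from all 6 libraries, and as coloured symbols without control replicate 1, without MCTP replicate 2 or with each library corrected for GC content. The MCTP value of Suz12 moves from -0.63 to -0.83 without MCTP replicate 2 and to -0.46 with the correction, and Kdm6b with shNsd2 stays between 0.13 and 0.20.

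Levels were compared between genes per kilobase of the longest transcript. In control cells Ezh2 was highest, at 10.20 ± 0.079 (log2 per kilobase, SD, n = 3), followed by Suz12 at 9.24 ± 0.158, Eed at 9.07 ± 0.110, Ezh1 at 8.46 ± 0.049 and Kdm6b at 8.12 ± 0.075. Kdm6a at 7.10 ± 0.138, Phf19 at 7.10 ± 0.082 and Mtf2 at 6.88 ± 0.210 came next, and Jarid2 stood at 5.57 ± 0.080, the lowest with this length. The ranges of the control libraries overlapped between Suz12 and Eed, between Kdm6a and Phf19 and between Phf19 and Mtf2, so these neighbours did not differ beyond their spread. With the median length of a gene's transcripts in place of the longest, the order became Suz12 (12.03), Ezh2 (11.88), Ezh1 (10.82), Eed (10.69), Jarid2 (9.21), Kdm6b (8.97), Kdm6a (8.42), Mtf2 (7.94) and Phf19 (7.87). Jarid2 moved most, so its place and the order of close neighbours depend on the length used.

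The GC content of the longest transcript was 38.20% for Mtf2, 41.64% for Suz12, 42.49% for Kdm6a, 44.38% for Ezh2, 47.75% for Eed, 48.80% for Jarid2, 51.25% for Ezh1, 53.94% for Phf19 and 59.56% for Kdm6b. The 4 members of lowest GC content held the 4 lowest log2 fold changes with MCTP, and the 3 of highest GC content held the 3 values nearest to 0. Over all genes, the median log2 fold change with MCTP was -0.22 for transcripts of 40 to 42% GC and 0.11 for those of 58 to 60%. Suz12, Kdm6a, Ezh2, Eed, Jarid2, Phf19 and Kdm6b lay below the lower quartile of the genes in their own GC range, and Mtf2 and Ezh1 lay between the quartiles. With shNsd2 the corresponding medians were -0.037 and 0.075, so the trend was in the same direction and smaller.

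**Figure D3:**
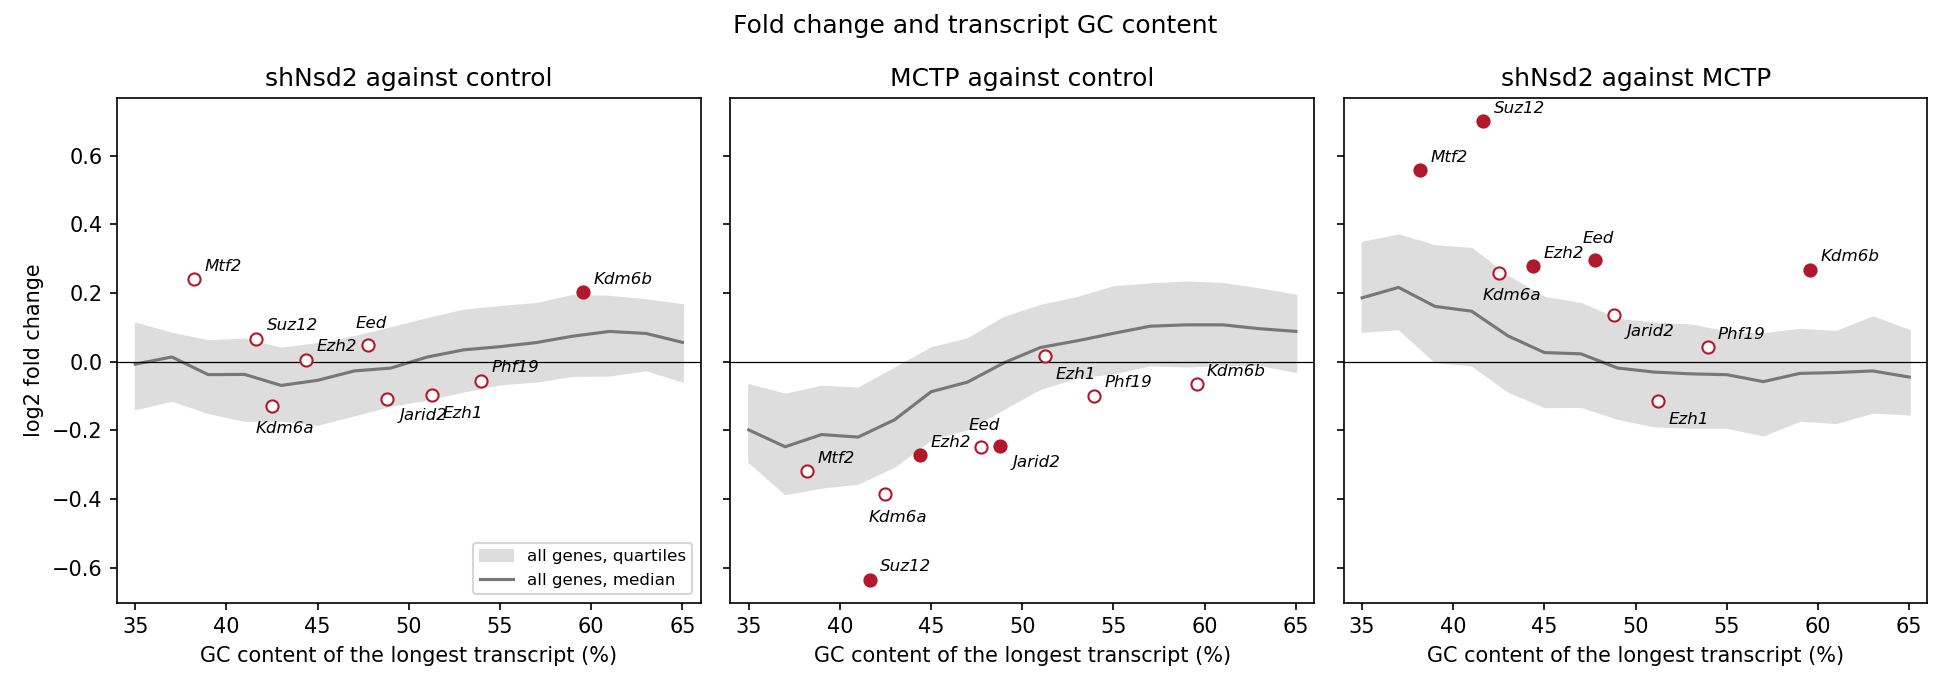
Log2 fold change of the 9 genes against the GC content (%) of their longest transcript, with filled points for genes called and open points for those not called. The grey line and band give the median and quartiles of all genes tested in steps of 2 percentage points of GC; with MCTP the median runs from -0.22 at 40 to 42% to 0.11 at 58 to 60%, and Suz12 lies at -0.63.

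The genes whose pattern was most like that of Ezh2 over the 9 libraries, by the root mean square difference after each gene's own mean was subtracted, were Usp7 (0.019), Ccdc77 (0.020) and Rpp30 (0.024). For Suz12, the member with the widest range, they were Stag1 (0.035), Xpo1 (0.041) and Prpf4b (0.043). Without control replicate 1 and MCTP replicate 2, the genes nearest to Ezh2 over 7 libraries were Pcna (0.016), Magoh (0.016) and Rbbp7 (0.017), and those nearest to Suz12 were Prpf4b, Stag1 and Xpo1. The likeness of Suz12 thus named the same genes with and without these libraries, and that of Ezh2 named others.

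The counts of the lists below stand beside 47.8% of all genes called with shNsd2 (23.1% higher) and 35.2% called with MCTP (17.2% lower). With shNsd2 the share called was above that of all genes for the Kdm6a partners (60.0%), the Hox genes (52.4%) and the other Polycomb targets (55.6%), although near it for the last 2 lists. With MCTP it was above for the other targets (44.4%) and the E2F and proliferation genes (55.0%). This order was not stable. Without control replicate 1, 6 of 21 Hox genes were called higher and 4 lower with shNsd2, beside 49.3% of all genes. For the 9 other targets it was 0 higher and 4 lower. With the GC correction, 5 of 10 Kdm6a partners were called higher and 0 lower with shNsd2, beside 56.0%. With MCTP and that correction, 2 of 9 other targets were higher and 2 lower, beside 45.6%. Of 7 other PRC2 subunits and cofactors tested, 2 rose with shNsd2, Epop (0.57, adjusted p = 0.000119) and the histone-binding subunit Rbbp4 (0.30, adjusted p = 0.000133), and 0 fell. Without control replicate 1, 4 were called higher, and with the GC correction 5 were called higher and 1 lower. With MCTP 1 fell, Rbbp7 (-0.26, adjusted p = 0.00835), and over the 15 alternatives 1 to 4 were called lower, the most without MCTP replicate 2. The median log2 fold change of these 7 genes was 0.10 with shNsd2 and -0.11 with MCTP, beside 0.0020 and -0.0062 over all genes tested, and over the alternatives the medians lay between 0.049 and 0.18 and between -0.22 and -0.034. PRC1 is the complex that reads trimethylated H3K27 and ubiquitinates histone H2A. Of 24 PRC1 genes tested, 6 rose and 3 fell with shNsd2, led by Cbx2 (0.46), L3mbtl2 (0.38), Cbx6 (0.26) and Pcgf5 (-0.28), and 2 rose and 3 fell with MCTP, led by Phc1 (-0.30), L3mbtl2 (0.30), Cbx7 (-0.24) and Pcgf6 (-0.22). Their median was 0.072 with shNsd2 and -0.077 with MCTP, and over the alternatives 5 to 7 were called higher and 2 to 3 lower with shNsd2. With MCTP the counts were less stable, from 0 to 4 higher and from 1 to 10 lower, with 4 higher and 8 lower after the GC correction. Among 4 genes of H2A deubiquitination, which opposes PRC1, Bap1 was called with shNsd2 (0.16), there and in all 14 alternatives. With MCTP Asxl2 was called (-0.42). When control replicate 1, 2 or 3 or MCTP replicate 1 or 3 was left out, 0 of the 4 were called with MCTP.

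Kdm6a acts in a complex with Kmt2c or Kmt2d, methyltransferases of histone H3 lysine 4. Of 10 partner genes, counting the Y-linked paralog of Kdm6a, 6 rose and 0 fell with shNsd2, led by Ash2l (0.21), Kmt2d (0.40), Rbbp5 (0.17) and Wdr5 (0.18), with a median of 0.15 and 5 to 6 called higher over the alternatives. With MCTP 0 rose and 2 fell, Ncoa6 (-0.21) and Kmt2c (-0.38), with a median of -0.11. Over the alternatives 0 to 4 were called lower, with 0 in 5 of the 6 fits that left out a library (all but that without MCTP replicate 2) and 4 with the GC correction. Neither Ep300 nor Crebbp, which acetylate H3K27, was called with shNsd2 or MCTP, but over the alternatives up to 2 were called lower with MCTP, both of them without MCTP replicate 2. Of 20 E2F and proliferation genes, 7 rose and 1 fell with shNsd2, led by Ccne1 (0.41), E2f2 (0.37), Mcm5 (0.34) and Mcm7 (0.25), while with MCTP 1 rose, Ccne1 (0.36), and 10 fell, led by Mcm4 (-0.33), Mcm6 (-0.34) and Pcna (-0.34). Their median was 0.028 with shNsd2 and -0.20 with MCTP, and over the alternatives 6 to 9 were called higher with shNsd2 and 3 to 12 lower with MCTP. The fewest lower were found without control replicate 2, against 5 without control replicate 1 and 12 with the GC correction.

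Among genes known as Polycomb targets in other cells, those with values moved both ways. Only 22 of the 39 Hox genes listed and 10 of the 28 other targets listed had values, so the rest could not be examined. Of 21 Hox genes tested, 4 rose and 7 fell with shNsd2 (Hoxa10 -0.34, Hoxb8 0.32, Hoxa13 -0.37 and Hoxa2 -0.21 had the smallest adjusted p), and 1 rose and 2 fell with MCTP (Hoxa11 0.26, Hoxb8 -0.26 and Hoxd8 -0.14). Of 9 other targets tested, 1 rose and 4 fell with shNsd2 (among them Foxc1 -0.37, Gata6 -0.42 and Slit2 -0.37), and 3 rose and 1 fell with MCTP (among them Slit2 -0.35, Foxa2 0.24 and Bmp2 0.12). The medians were -0.048 and -0.030 for the Hox genes and -0.047 and 0.059 for the others, with shNsd2 and MCTP in that order. The signs of the MCTP medians were not stable, since over the alternatives they ran from -0.080 to 0.003 for the Hox genes and from -0.044, with the GC correction, to 0.093 for the others. Over the alternatives the Hox genes gave 2 to 6 higher and 4 to 8 lower with shNsd2, and 0 to 4 higher and 1 to 5 lower with MCTP. The number of Hox genes tested was 22 with no filter and 19 with the GC correction. That correction gave the 2 higher and 8 lower with shNsd2 and the MCTP median of -0.080. The other targets gave 0 to 1 higher and 4 lower with shNsd2, and 1 to 3 higher and 1 to 2 lower with MCTP. Whether these genes carry H3K27 methylation in NPK cells was not measured here.

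The labelled cell type was checked on marker genes. Of the luminal epithelial markers, Krt8 (control mean 16.28), Krt18 (15.38), Krt19 (16.20) and Cdh1 (11.77) were high, Epcam lay below the filter value at 3.55, and Pbsn and Msmb, markers of prostate secretory cells, were not analysed here. The mesenchymal markers Vim (17.21) and Fn1 (15.65) were also high. All 6 of that list were called lower with shNsd2, between -0.42 for Fn1 and -0.10 for Cdh2. Over all genes, 3021 of 12205 were called lower with shNsd2. Of 5 luminal markers tested, 4 fell and 0 rose with shNsd2, with a median of -0.21 beside -0.22 for the mesenchymal list. Among the 4, Krt8 was called in 9 of 14 alternatives. With MCTP 1 rose and 1 fell in each of the luminal and mesenchymal lists, where 35.2% of all genes were called. Basal markers were mixed, with Krt15 at 12.55, Krt14 at 8.91 and Trp63 at 4.87. Krt15 fell with shNsd2 (-1.20), as did Trp63 (-0.094, called in 2 of 14 alternatives). Krt14 rose with shNsd2 (0.78) and with MCTP (1.19). The endothelial marker Cdh5 (3.50) and the fibroblast marker Dcn (2.33) lay below the filter value, Pdgfra was at 3.99 and the neuroendocrine markers Insm1 and Syp at 6.71 and 4.15. Insm1 fell with shNsd2 (-0.38) and with MCTP (-0.84), and Syp was called with neither. Cd68, the leukocyte marker analysed, was at 6.53 in control, 6.76 in shNsd2 and 7.26 in MCTP cells, and the part of other cells in the results on the 9 genes was not tested.

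Promoter sequences were taken from RefSeq (GRCm38.p6), where 8 of the 9 genes matched, with 10 windows of 300 bases, each around a start annotated there. The Ezh2 window, both Jarid2 windows and 1 of the 2 Mtf2 windows lie inside the genes as placed by the annotation used above. All 10 windows were searched on both strands for TTTNNCGC, a motif bound by E2F factors. The motif was found in the windows of Ezh2, Suz12 and Phf19 and in 5.17% of all 32851 windows, and a match is a description of the letters only. The stretches of 280 bases that hold a match are printed from 5′ to 3′ on the strand of the gene with the motif, or its reverse complement, in capitals, and there is 1 match for Ezh2 (chr6:47595001-47595280, - strand), 1 for Suz12 (chr11:79992856-79993135, + strand) and 2 for Phf19, which was not called (chr2:34913947-34914226, - strand).
Ezh2: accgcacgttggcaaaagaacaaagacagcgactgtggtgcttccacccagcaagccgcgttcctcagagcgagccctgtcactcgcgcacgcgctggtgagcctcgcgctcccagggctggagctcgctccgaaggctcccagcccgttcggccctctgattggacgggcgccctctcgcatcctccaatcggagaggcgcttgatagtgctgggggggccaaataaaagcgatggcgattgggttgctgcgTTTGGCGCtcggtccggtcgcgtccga
Suz12: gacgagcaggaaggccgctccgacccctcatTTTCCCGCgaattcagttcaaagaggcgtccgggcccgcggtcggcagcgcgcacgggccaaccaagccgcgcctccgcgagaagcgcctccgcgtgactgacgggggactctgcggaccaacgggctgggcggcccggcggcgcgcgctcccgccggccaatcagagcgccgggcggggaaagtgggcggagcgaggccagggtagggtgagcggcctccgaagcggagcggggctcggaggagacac
Phf19: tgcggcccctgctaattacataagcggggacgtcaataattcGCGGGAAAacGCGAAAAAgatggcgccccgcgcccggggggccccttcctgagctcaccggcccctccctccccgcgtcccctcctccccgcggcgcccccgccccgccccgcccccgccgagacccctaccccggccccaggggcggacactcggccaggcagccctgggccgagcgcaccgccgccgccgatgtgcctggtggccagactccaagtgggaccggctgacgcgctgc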

How the data were processed

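RNA was enriched by poly-A selection and sequenced on an Illumina HiSeq2500. The authors deposited 1 table of log2 values for 12842 genes, already scaled between libraries; the transform is not named, and their processing notes list bcl2fastq 1.8.4, TopHat, Cufflinks, DESeq, DESeq2 and the mm9 build, with no role or order. The methods of the study describe RNA-seq counts made comparable and variance-stabilized by DESeq2, and whether this covers the table is not stated. Such a transform would understate differences at low values. Of its 12 columns of values, 3 belong to no sample in this record and were left aside. No counts are given, so depth is unknown.

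A gene was tested if 3 or more of the 6 libraries compared exceeded 3.78, which is the median of the lowest 10% of values. The test was the moderated t-test of limma 3.58.1 (R 4.3.3, eBayes, trend), and p-values were adjusted by the Benjamini-Hochberg method over every gene tested. The 2 groups compared entered each fit, and a threshold of 0.05 was used. Exact two-sided permutation tests were run for Ezh2 and Nsd2 only. Identical values between replicates were found at 0 genes, and replicates correlated at 0.996 or more (Pearson). The fits were tested on simulated data in which 200 genes changed by 0.8 (log2). Over the 3 comparisons 98.5 to 100% of them were recovered, and 4.83 to 5.66% of the calls were false. Noise was drawn independently for each gene, with no GC trend and no library that stood apart. Smaller changes were not simulated.

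Coordinates, lengths and GC content come from GENCODE M21 (GRCm38), which is not the build in the notes; 12513 identifiers (97.4%) matched without their version. Exons of Eed, Ezh2, Kdm6b, Mtf2 and Suz12 share bases with a gene on the other strand, over 2.61 to 6.93% of their exon bases, and the strand setting of the counting is not given in the sources used here, so reads there cannot be told apart.

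Alternatives were no filter, all 9 libraries in a single fit, a replicate block (pairs taken from the numbers in the titles), quantile normalization, median centring, no trend, a GC correction (lowess of each library's deviation on GC, span 0.3) and each library left out in turn. After seeing the data, 2 were added: control replicate 1 and MCTP replicate 2 left out together, and the GC correction with the block. The 9 genes and the gene lists were chosen with earlier results of these data known. Named genes are the 9, Nsd2, up to 4 called genes of each list by adjusted p (some that this rule covers are not reported here), and the 3 genes nearest in pattern to Ezh2 and to the member of widest range. Python 3.11.15 with matplotlib 3.10.9 drew the figures.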

Additional observations from a re-analysis of the deposited data

How the results depend on the processing

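Over the 9 genes, 111 of 126 alternative values for shNsd2 against control, 107 of 135 for MCTP against control and 108 of 126 for shNsd2 against MCTP kept their direction and their side of the threshold. Values that changed direction were all of genes not called: Ezh2 with shNsd2 was -0.0005 with quantile normalization, -0.0052 without control replicate 2 and -0.027 without control replicate 3 (-0.027 to 0.050 with single libraries left out), and Ezh1 with MCTP was -0.011 without control replicate 2 and -0.028 with the GC correction, with or without the block (-0.011 to 0.044 with single libraries left out). Nsd2 with MCTP was not called with the GC correction (-0.12, adjusted p = 0.0775, or 0.132 with the block; adjusted p between 2.77e-06 and 0.0319 over the other alternatives).

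The number of the 9 genes called with shNsd2 was 1. It was 2 with quantile normalization or median centring, 4 with the GC correction with or without the block, and 1 to 3 with single libraries left out. With MCTP it was 3. It was 5 with all 9 libraries in one fit or the GC correction, 6 with the GC correction and block, 6 without control replicate 1 and MCTP replicate 2, and 0 to 6 with single libraries left out. For shNsd2 against MCTP it was 5. It was 7 with all 9 libraries in one fit, quantile normalization or the GC correction, 6 without a trend or with the GC correction and block, and 2 to 8 with single libraries left out. The number of all genes called with MCTP, 4305, was 7555 without control replicate 1 and MCTP replicate 2 and lay between 2029 (without MCTP replicate 1) and 7372 (without MCTP replicate 2) with single libraries left out. The number for shNsd2 against MCTP, 5276, lay between 3361 and 7756. Fewer samples enter these fits, and the cause of the other changes was not tested. Ezh2 minus Ezh1 moved with transcript length by construction, from 1.14 to 1.74 in control, 1.25 to 1.84 in shNsd2 and 0.86 to 1.45 in MCTP with the longest transcript, and to 1.06, 1.17 and 0.77 with the median length.

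With the replicate block, the genes called were 4515 with shNsd2, 3399 with MCTP and 3794 for shNsd2 against MCTP, and the numbers of the 9 genes called were 1, 3 and 5. On average same-numbered libraries did not deviate together: deviations correlated at -0.25 for shNsd2 with control, -0.19 for MCTP with control and -0.36 for shNsd2 with MCTP. A library was closest to its own number in 0, 1 and 0 of 3 cases, so the numbers were not taken as pairs. Some same-numbered pairs did correlate positively, such as control and MCTP replicates 3 (0.61), shNsd2 and MCTP replicates 1 (0.35) and control and shNsd2 replicates 2 (0.25). Across numbers, control replicate 1, shNsd2 replicate 3 and MCTP replicate 2 deviated from their groups in the same direction, with correlations of 0.64 (control with shNsd2), 0.80 (control with MCTP) and 0.84 (shNsd2 with MCTP).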
